A study of Mus musculus with 17 samples.

Results

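Vimentin, the keratins, desmin, GFAP, nestin and the lamins are the subunits of intermediate filaments, and 10 of their genes (Vim, Krt8, Krt18, Krt19, Krt7, Des, Gfap, Nes, Lmna and Lmnb1) are described here across 3 groups of mouse retinal pigment epithelium (RPE) cells. The 10 genes were selected by symbol from the 22253 genes of the deposited count table, with the levels and group differences of these libraries in view, so that their levels and fold changes are given as a description and without a test. All 17 libraries came from Serpine3GFP/+ mice at 2 months of age, which carry a GFP reporter in 1 of their Serpine3 alleles, so that the control groups carry the reporter allele too. Each library was made, by its label, with the SMART-Seq mRNA LP kit from 10 to 15 cells picked by hand after dissociation: 6 libraries hold peripheral GFP+ cells (GFP+ RPE), 5 hold GFP- cells of the periphery (peripheral GFP- RPE, "ctrl periphery") and 6 hold GFP- cells of the center (central GFP- RPE, "ctrl center"). The pools came from 7 mice, numbered 1 to 7, and mice 1, 2, 4, 5 and 7 gave a library to every group. The picking was by GFP fluorescence, so that the groups were defined by the activity of the reporter allele and by position in the eye. Mouse 1 carries 2 animal numbers in its label, and its pools may therefore hold cells of 2 animals.

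Intermediate filaments are rope-like polymers that give cells mechanical strength, and the subunits in use differ between cell types. Simple epithelia pair a type I keratin such as Krt18 with a type II keratin such as Krt8, mesenchymal cells use vimentin, muscle uses desmin, astrocytes and stressed Mueller glia use GFAP, and neural progenitors use nestin. Lamins line the inside of the nuclear envelope of nearly all cells, with A-type lamins encoded by Lmna and B-type lamins by Lmnb1 and Lmnb2. RPE is a simple pigmented epithelium known for keratins 8 and 18, and vimentin is known to be gained by RPE cells that leave the sheet or grow in culture.

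The libraries held 9896118 to 22467079 counts. Serpine3, the gene that carries the reporter, had 107 to 576 counts in the 6 GFP+ libraries, at most 5 counts in the peripheral GFP- libraries and 0 counts in the 6 central GFP- libraries, each of which allows up to 3 counts. Levels are given as CPM, the counts of a gene relative to all counts of its library, scaled by TMM, edgeR's correction for differences in library composition. A gene at or under 3 counts in a library was taken to be at the detection floor, which corresponded to 0.116 to 0.554 CPM and covers counting error only. The libraries did not have equal quality: the mitochondrial share of counts was 7.95% ± 5.70 (SD, n = 6) for GFP+ RPE, 19.7% ± 6.98 (n = 5) for peripheral GFP- RPE and 29.1% ± 12.2 (n = 6) for central GFP- RPE. The central library of mouse 5 stood apart, with 47.3% mitochondrial counts and 5392 genes at 10 or more counts, against 6430 to 10543 in the other 16 libraries. Of 12 RPE markers, 11 were above the floor, their summed level lay between 36904 and 69797 CPM in the 17 libraries, and Ttr, Rpe65 and Rdh5 were the highest. Best1, an RPE chloride channel gene, was at or under the floor in all 17. In these pooled cells a lower level can come from fewer cells that express a gene or from less RNA in each, which cannot be told apart.

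Measured per kilobase of exon, to set levels of different genes side by side, the 10 genes spanned the range from abundant to undetected. The length used joins all annotated exons of a gene, 4743 bases for Vim, 1958 for Krt8 and 1437 for Krt18. It can exceed the length of any 1 transcript, which lowers the value, so that the order of genes depends on it. In GFP+ RPE, Vim was above Krt8 in mean CPM, at 166 against 130, but below it per kilobase, at 35.0 against 66.4. The median over the 17 libraries was 631 CPM per kilobase for Krt18, 73.4 for Krt8, 18.2 for Vim, 1.15 for Lmna and 0.143 for Krt7, and the 5 remaining genes had a median of 0. Krt18 ranked 83 of the 22253 genes by its mean CPM, Krt8 ranked 676 and Vim ranked 1330. These filament genes were thus led by a keratin pair and vimentin, whereas lamin and Krt7 transcripts were sparse. Krt18, Krt8, Vim, Lmna and Krt7 passed edgeR's default filter on low counts in each of the 3 comparisons, and Krt19, Des, Gfap, Nes and Lmnb1 passed it in none.

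Krt18 (chr15:102028180-102032027, plus strand) and Krt8 (chr15:101996698-102004482, minus strand) are neighbours on chromosome 15 of the GRCm38 build, with 23698 bases between their starts, and Vim lies on chromosome 2 (chr2:13573927-13582826, plus strand). All are protein-coding, and these spans are those of the GENCODE annotation, whose first transcripts start within the Krt18 and Krt8 windows shown here and before the Vim window. Since these 3 genes were the highest of the 10, and since 2 of them are keratin partners while Vim took another course across the groups, the 250 bases before their start in RefSeq (GRCm38.p6) are shown, 5′ to 3′ on the strand of the gene, at chr15:102027966-102028215 for Krt18, chr15:102004343-102004592 for Krt8 and chr2:13574061-13574310 for Vim. Capitals mark a TATA box (TATAAA on either strand) or a CCAAT box (CCAAT or its complement ATTGG).
Krt18: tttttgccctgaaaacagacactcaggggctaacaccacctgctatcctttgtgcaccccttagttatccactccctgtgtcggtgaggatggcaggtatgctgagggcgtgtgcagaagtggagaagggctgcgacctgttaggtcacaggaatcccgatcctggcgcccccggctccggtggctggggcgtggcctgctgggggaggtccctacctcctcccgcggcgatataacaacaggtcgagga
Krt8: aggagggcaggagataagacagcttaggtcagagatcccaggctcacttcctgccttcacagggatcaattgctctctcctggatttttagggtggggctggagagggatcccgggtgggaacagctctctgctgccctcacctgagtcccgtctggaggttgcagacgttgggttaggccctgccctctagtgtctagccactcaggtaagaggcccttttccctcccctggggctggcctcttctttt
Vim: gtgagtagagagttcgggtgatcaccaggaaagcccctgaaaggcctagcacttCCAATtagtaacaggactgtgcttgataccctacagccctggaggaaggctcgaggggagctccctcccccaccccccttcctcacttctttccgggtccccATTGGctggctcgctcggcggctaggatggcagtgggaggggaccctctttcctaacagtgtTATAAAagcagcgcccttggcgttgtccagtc
The Vim window held TATAAA with its first base 32 bases before the start, and ATTGG and CCAAT at 94 and 196 bases, and no GC box (GGGCGG or CCGCCC) or AP-1 motif (TGACTCA or TGAGTCA). Neither keratin window held any of these 4 motifs. Of 32851 RefSeq mouse promoter windows of the same length, 12.4% held the TATA box, 33.8% the CCAAT box, 32.7% the GC box and 4.46% the AP-1 motif. A match of letters is a description of the window and does not show a site in use.

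Krt18 encodes the type I partner of the pair and was the most abundant of the filament transcripts in every library. Its level in GFP+ RPE was 885, 730, 738, 1025, 837 and 926 CPM in mice 1, 2, 3, 4, 5 and 7. In peripheral GFP- RPE it was 906, 1010, 907, 452 and 1037 CPM in mice 1, 2, 4, 5 and 7. In central GFP- RPE it was 845, 1272, 1015, 663, 1084 and 1645 CPM in mice 1, 2, 4, 5, 6 and 7. The 3 groups overlapped, with means of 857 ± 114 (SD, n = 6), 862 ± 237 (n = 5) and 1087 ± 343 CPM (n = 6), and the lowest value was the peripheral GFP- library of mouse 5. The log2 fold change of GFP+ RPE was 0.02 (SE 0.21) against peripheral GFP- RPE and -0.40 (SE 0.22) against central GFP- RPE, and that of peripheral against central GFP- RPE was -0.40 (SE 0.27). With total counts in place of TMM the difference of GFP+ from central GFP- RPE was 0.09, but this scaling moved the median of all genes to 0.48, so that Krt18 stayed below that median. Within the 5 mice that gave all 3 libraries, Krt18 was higher in GFP+ RPE than in peripheral GFP- RPE in 2 of 5 and higher than in central GFP- RPE in 3 of 5.

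Krt8, the type II partner, was lower and most even in GFP+ RPE. The GFP+ libraries of mice 1, 2, 3, 4, 5 and 7 held 137, 127, 139, 138, 119 and 120 CPM. Peripheral GFP- RPE of mice 1, 2, 4, 5 and 7 held 190, 227, 202, 105 and 144 CPM. Central GFP- RPE of mice 1, 2, 4, 5, 6 and 7 held 272, 229, 203, 8.50, 207 and 301 CPM. Thus 5 of 6 central libraries and 4 of 5 peripheral GFP- libraries lay above every GFP+ library, and the exceptions were both from mouse 5. The central library of mouse 5 had only 46 Krt8 counts beside 3587 Krt18 counts. Group means were 130 ± 9.23 (SD, n = 6), 173 ± 49.0 (n = 5) and 203 ± 103 CPM (n = 6), with coefficients of variation of 7.10%, 28.3% and 50.6%. The log2 fold change of GFP+ RPE was -0.39 (SE 0.22) against peripheral and -0.69 (SE 0.48) against central GFP- RPE, and the latter was -0.94 without the central library of mouse 5, -0.32 with the mouse as a block and -0.30 with total counts in place of TMM. Between peripheral and central GFP- RPE it was -0.28 (SE 0.53), and it turned to 0.15 with the mouse as a block. Krt8 was lower in GFP+ RPE than in either control library in 4 of 5 mice, again with mouse 5 as the exception. Of the 50-base stretches of Krt8 transcripts, the length of the reads, 29.7% also occur in transcripts of the pseudogene Krt8-ps or of Gm36026, which overlaps Krt8 on the other strand, so that how the counting placed such reads could change the Krt8 level; for Krt18 this share was 0.72%.

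**Figure D1:**
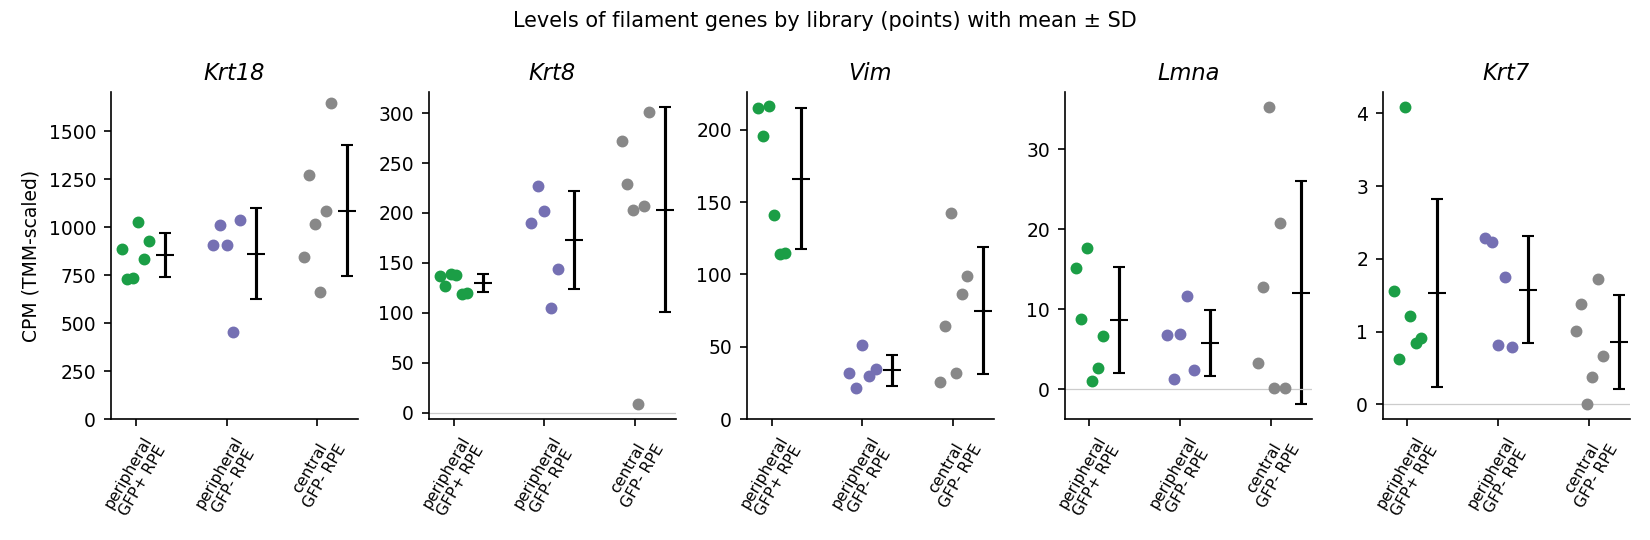
Levels of the 5 filament genes that passed the filter, in CPM with TMM scaling on a linear axis, for each library (points) with the group mean and SD (bar beside the points; n = 6, 5 and 6). Krt18 overlaps between all groups, Krt8 is tightly grouped in GFP+ RPE at 119 to 139 CPM with 1 central library at 8.50 CPM, Vim is at 114 to 216 CPM in GFP+ RPE against 21.4 to 51.1 CPM in peripheral GFP- RPE, and Lmna and Krt7 scatter in every group.

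The ratio of the 2 keratins was set within each library, where it does not depend on scaling between libraries. Per exon base, Krt18 exceeded Krt8 by 8.78, 7.86, 7.26, 10.1, 9.58 and 10.5 times in the GFP+ libraries of mice 1, 2, 3, 4, 5 and 7. In peripheral GFP- RPE the ratio was 5.89 to 6.51 in mice 1, 2, 4 and 5 and 9.84 in mouse 7. In central GFP- RPE it was 4.23 to 7.58 in 5 mice and 106 in mouse 5. The ratio was therefore higher in GFP+ RPE than in 4 of 5 peripheral GFP- libraries, while GFP+ mouse 3 lay below the central libraries of mice 2, 5 and 7. Across the 17 libraries the 2 keratins followed each other with a Spearman correlation of 0.70 and a Pearson correlation of 0.53 of log2(CPM + 1), the latter 0.69 without the central library of mouse 5, whereas Vim had Spearman correlations of -0.23 with Krt8 and 0.02 with Krt18. These libraries share mice and differ in mitochondrial content, and the correlations are given as a description.

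Vim, which encodes the type III filament protein vimentin, had the largest fold change of the 5 filament genes that passed the filter. In the GFP+ libraries of mice 1, 2, 3, 4, 5 and 7 its level was 215, 196, 216, 141, 114 and 115 CPM. In peripheral GFP- RPE of mice 1, 2, 4, 5 and 7 it was 31.7, 21.4, 51.1, 30.1 and 34.4 CPM. In central GFP- RPE of mice 1, 2, 4, 5, 6 and 7 it was 25.3, 64.5, 143, 31.8, 86.5 and 98.9 CPM. The lowest GFP+ library lay above the highest peripheral GFP- library, whereas 1 central library, that of mouse 4, lay within the range of GFP+ RPE. The group means were 166 ± 48.4 (SD, n = 6), 33.7 ± 10.8 (n = 5) and 74.9 ± 44.1 CPM (n = 6), in the order GFP+ RPE, peripheral GFP- RPE and central GFP- RPE. Ranked by level, GFP+ RPE was followed by central and then by peripheral GFP- RPE, and the ranges of the last pair overlapped, with the central libraries of mice 1 and 5 at the peripheral level.

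The fold changes of Vim followed this order. GFP+ RPE was 5.03 times as high as peripheral GFP- RPE in the edgeR fit, a log2 fold change of 2.33 (SE 0.30), and 2.18 times as high as central GFP- RPE, a log2 fold change of 1.12 (SE 0.39). Peripheral GFP- RPE had a log2 fold change of -1.19 (SE 0.56) against central GFP- RPE. Within mice, Vim was higher in GFP+ RPE than in peripheral GFP- RPE in 5 of 5 mice, by 2.75 to 9.15 times with a median of 3.80, and higher than in central GFP- RPE in 4 of 5, with ratios of 0.987 to 8.49 and a median of 3.03. Peripheral GFP- RPE was below central GFP- RPE in 4 of 5 mice, and mouse 1 was the exception, with 1.25 times the central level. The GFP+ values fell into a higher set of mice 1 to 3, at 196 to 216 CPM, and a lower set of mice 4, 5 and 7, at 114 to 141 CPM, and the animal numbers of these mice form 2 separate ranges in the labels, which name no batch. Peripheral GFP- RPE lay at 21.4 to 31.7 CPM in mice 1 and 2 and at 30.1 to 51.1 CPM in mice 4, 5 and 7, so that GFP+ RPE was above it within either range of animal numbers. Against central GFP- RPE, GFP+ RPE was separate in mice 1 to 3, where the central libraries held 25.3 and 64.5 CPM, but overlapped in mice 4 to 7, where they held 31.8 to 143 CPM.

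**Figure D2:**
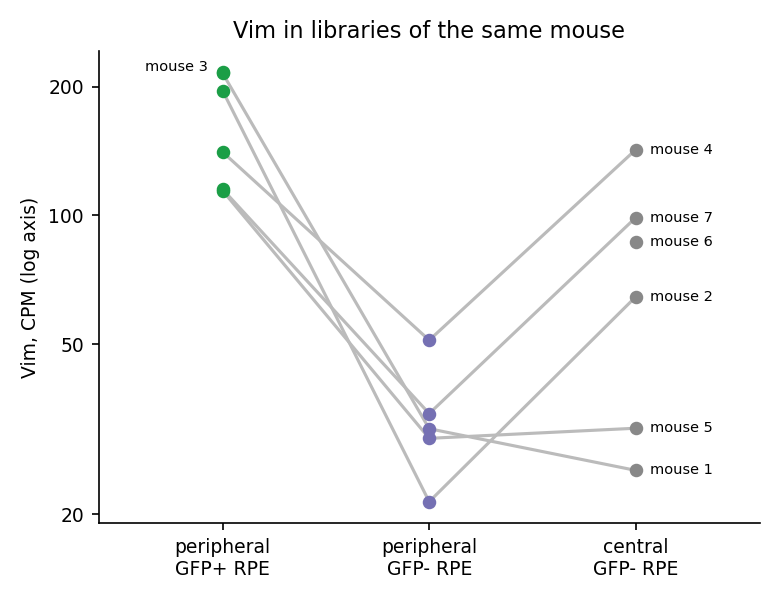
Vim in CPM (log axis) in each library, with lines joining the libraries of 1 mouse across peripheral GFP+ RPE, peripheral GFP- RPE and central GFP- RPE. Every line falls from GFP+ RPE to peripheral GFP- RPE, the central values spread from 25.3 to 143 CPM, and mice 3 and 6 have a single library each.

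Calls needed an absolute log2 fold change over 1 and an adjusted p under 0.01, after Benjamini-Hochberg over all genes tested, by edgeR's quasi-likelihood test on the libraries of the 2 groups. Of the 5 filament genes that passed the filter, 1 (Vim) was called between GFP+ and peripheral GFP- RPE, where 4 of 10102 genes tested were called, or 0.0396%, and 1 (Vim again) had group ranges that did not overlap, beside 1.29% of all genes tested. Between GFP+ and central GFP- RPE, where 4 of 9286 genes or 0.0431% were called and 1.13% had ranges that did not overlap, 0 of the 5 met either criterion. Between peripheral and central GFP- RPE, 0 of 9535 genes or 0% were called, 0.755% had ranges that did not overlap, and again 0 of the 5 met either criterion. At an unadjusted p under 0.05, 278 genes were higher and 286 lower in the first comparison, 199 and 340 in the second, and 98 and 159 in the third, with edgeR. The call of Vim was lost in 9 of 19 alternative fits, among them the fit with the mouse as a block, where its log2 fold change was 2.24, the fit of all 3 groups, and 7 of 11 fits that left out 1 library (GFP+ mouse 1, 2 or 4, or peripheral GFP- mouse 1, 2, 5 or 7). Its log2 fold change stayed between 2.20 and 2.51 in all 19. Since the gene was chosen with this difference in view, the call is part of the description.

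Set against Krt18 in the same library and per exon base, Vim transcripts amounted to 7.36%, 8.12%, 8.88%, 4.16%, 4.14% and 3.77% of Krt18 in the GFP+ libraries of mice 1, 2, 3, 4, 5 and 7. In peripheral GFP- RPE this share was 0.642% to 2.02%, and in central GFP- RPE it was 0.908% to 4.26%. The GFP+ and peripheral GFP- libraries did not overlap in this share either, and the central library of mouse 4 lay above 3 GFP+ libraries. By counts alone, without exon length, the share in GFP+ RPE was 12.4% to 29.3%, so that its size depends on the length used. Even in GFP+ RPE the Krt18 transcript was thus the more abundant in each library by either measure.

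**Figure D3:**
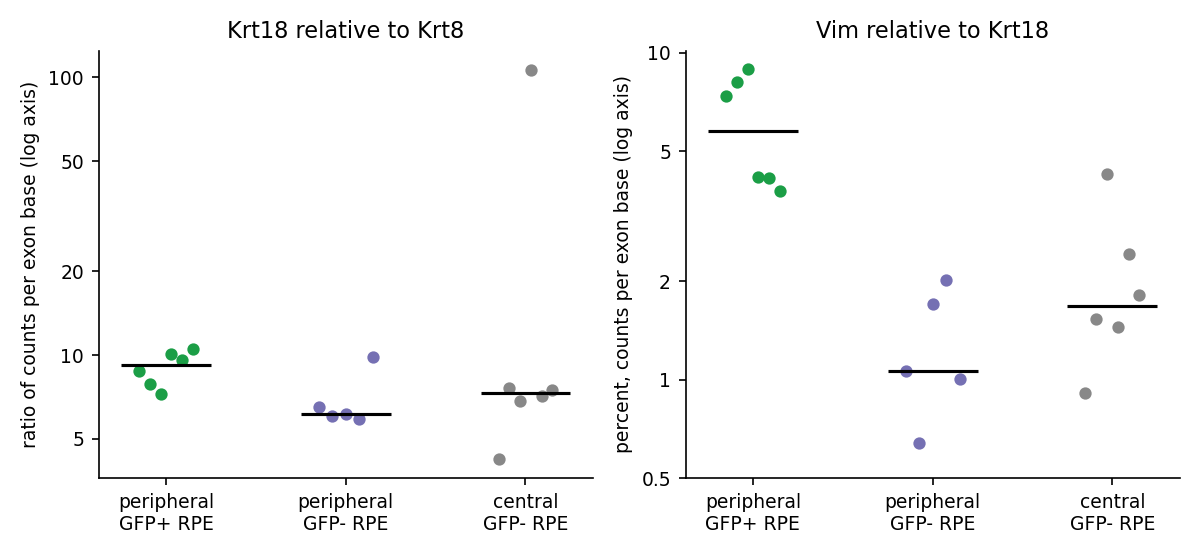
Ratio of Krt18 to Krt8 (left, log axis) and Vim as a percentage of Krt18 (right, log axis), both from counts per exon base within each library, with group medians as lines. The keratin ratio is 7.26 to 10.5 in GFP+ RPE with 1 central library at 106, and the Vim share is 3.77% to 8.88% in GFP+ RPE against 0.642% to 2.02% in peripheral GFP- RPE.

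Vimentin is also a filament of glia, endothelium, fibroblasts, macrophages and pericytes, and the markers of such cells were read in the same libraries. For endothelium, the summed level of 9 markers was 7.97 to 27.0 CPM in GFP+ RPE and 1.27 to 26.0 CPM in peripheral GFP- RPE, with Plvap and Flt1 the highest and Cdh5, Tek, Emcn and Cldn5 at the floor everywhere. For fibroblasts, the 6 markers summed to 0.0475 to 0.563 CPM and 0.433 to 1.14 CPM, led by Col1a1 and Lum, with Col1a2 and Pdgfra at the floor. The fibroblast markers were thus at or near the floor in both groups, whereas 5 endothelial genes were above it in some GFP+ libraries. Plvap reached 13.5 CPM in GFP+ RPE and 25.9 CPM in peripheral GFP- RPE, Flt1 13.4 and 8.24 CPM, and Egfl7 7.29 and 5.18 CPM. Kdr reached 10.4 CPM in GFP+ RPE, above the floor in 3 of 6 libraries, and had at most 2 counts in peripheral GFP- RPE. Pecam1 was above the floor in 1 GFP+ library, at 2.31 CPM, and had 0 counts in peripheral GFP- RPE. The part of these genes in the Vim difference was not tested. For Mueller glia, the 7 markers summed to 581 to 753 CPM in GFP+ RPE and 456 to 775 CPM in peripheral GFP- RPE. Nearly all of it was Glul, followed by Dkk3, with Aqp4 and Abca8a at the floor. Dkk3 had a mean of 9.16 CPM in GFP+ RPE, 4.22 CPM in peripheral GFP- RPE and 0 counts in the 6 central libraries. Slc1a3 had 0 counts in the 6 GFP+ libraries and up to 9.49 CPM in peripheral GFP- RPE. The part of these markers in the Vim difference was not tested. For macrophages and microglia, the 9 markers summed to 38.1 to 111 CPM and 105 to 146 CPM, nearly all of it Csf1r, followed by Cd68, with Cx3cr1, C1qa, C1qb, C1qc, Aif1 and Tyrobp at the floor. For pericytes and smooth muscle, the 9 markers summed to 169 to 567 CPM and 149 to 247 CPM, nearly all of it Acta2, followed by Cspg4, with Myh11 at the floor. The pericyte sum reached higher values in GFP+ RPE with overlapping ranges, while the means of Cspg4, 11.6 against 19.6 CPM, and of Pdgfrb, 1.94 against 3.99 CPM, were lower there, and their part in the Vim difference was not tested. Photoreceptor markers, led by Pde6a and Gnat1, summed to 1.80 to 35.8 CPM and 10.8 to 38.7 CPM, with Rcvrn and Arr3 at the floor. Markers of the surface epithelium of the eye, led by Trp63 and Krt12, were at 0 in GFP+ RPE and reached 1.83 CPM in peripheral GFP- RPE, with Krt5 and Krt14 at the floor. In central GFP- RPE the sums were 0.333 to 17.04 CPM for endothelium, 0.168 to 2.03 for fibroblasts, 377 to 678 for Mueller glia, 68.4 to 116 for macrophages, 117 to 326 for pericytes and 13.6 to 128 for photoreceptors. The mitochondrial share, lowest in GFP+ RPE, moved with the groups as well, and its part in the Vim difference was not tested.

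Lmna, the gene of the A-type lamins A and C, was read at scattered counts. GFP+ RPE of mice 1, 2, 3, 4, 5 and 7 held 389, 185, 397, 13, 38 and 138 counts. Peripheral GFP- RPE of mice 1, 2, 4, 5 and 7 held 121, 25, 143, 146 and 24 counts. Central GFP- RPE of mice 1, 2, 4, 5, 6 and 7 held 39, 233, 354, 1, 277 and 1 counts. Every group thus held high and low libraries, and the central libraries ranged from the floor to the highest Lmna level of all, 35.3 CPM in mouse 4. In CPM the means were 8.63 ± 6.65 (SD, n = 6), 5.78 ± 4.11 (n = 5) and 12.1 ± 14.0 (n = 6), and the ranges overlapped in every comparison. The log2 fold changes had standard errors over 1: they were 0.57 (SE 1.08) for GFP+ against peripheral GFP- RPE, -0.47 (SE 1.29) for GFP+ against central GFP- RPE and -1.05 (SE 1.48) for peripheral against central GFP- RPE. Both values against central GFP- RPE took the opposite sign with the mouse as a block, at 1.49 and 0.86, and the former also without the central library of mouse 4, at 0.20. No direction could therefore be given for Lmna.

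Lmnb1, the gene of lamin B1, lies on chromosome 18 and was above the floor in 5 of 17 libraries. It had 12 and 32 counts in the GFP+ libraries of mice 2 and 4, 22 and 8 counts in the peripheral GFP- libraries of mice 1 and 5, and 19 counts in the central library of mouse 1. The other 12 libraries had 0 counts, each of which allows up to 3. Detection was spread over all groups, and the levels of 0.570 to 2.42 CPM where it was detected allow no order between them.

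Krt7, a type II keratin of ductal and other simple epithelia, had 12 to 92 counts in GFP+ RPE, 8 to 43 in peripheral GFP- RPE and 0 to 25 in central GFP- RPE. Its levels were 0.617 to 4.09 CPM, 0.791 to 2.28 CPM and 0 to 1.72 CPM, with means of 1.54 ± 1.29 (SD, n = 6), 1.57 ± 0.733 (n = 5) and 0.857 ± 0.641 (n = 6). The log2 fold change was -0.03 (SE 1.02) for GFP+ against peripheral GFP- RPE, 0.76 (SE 0.95) for GFP+ against central GFP- RPE and 0.81 (SE 1.01) for peripheral against central GFP- RPE. The first of these took the opposite sign in 8 of 19 alternative fits and was -0.60 without GFP+ mouse 3, the library with the highest Krt7. The second was 0.23 without that library. Within mice, Krt7 was higher in peripheral than in central GFP- RPE in 5 of 5, although the central libraries of mice 4 and 5 were at the floor, with 0 and 2 counts.

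The remaining genes were not detected above the floor in more than 1 library. Krt19, a type I keratin of simple epithelia that lacks most of the usual tail, had 4 counts in the peripheral GFP- library of mouse 4 and 0 in the other 16 libraries. Des, the desmin of muscle, had 1 count in each of 4 libraries, 2 peripheral and 2 central, and 0 in the other 13. Nes, the nestin of neural progenitors, had 1 count in the central library of mouse 4, and Gfap, the glial filament of astrocytes, had 0 counts in all 17 libraries. A count of 0 allows up to 3 counts, or 0.116 to 0.554 CPM depending on the library, and lower levels were not detectable at this depth.

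**Figure D4:**
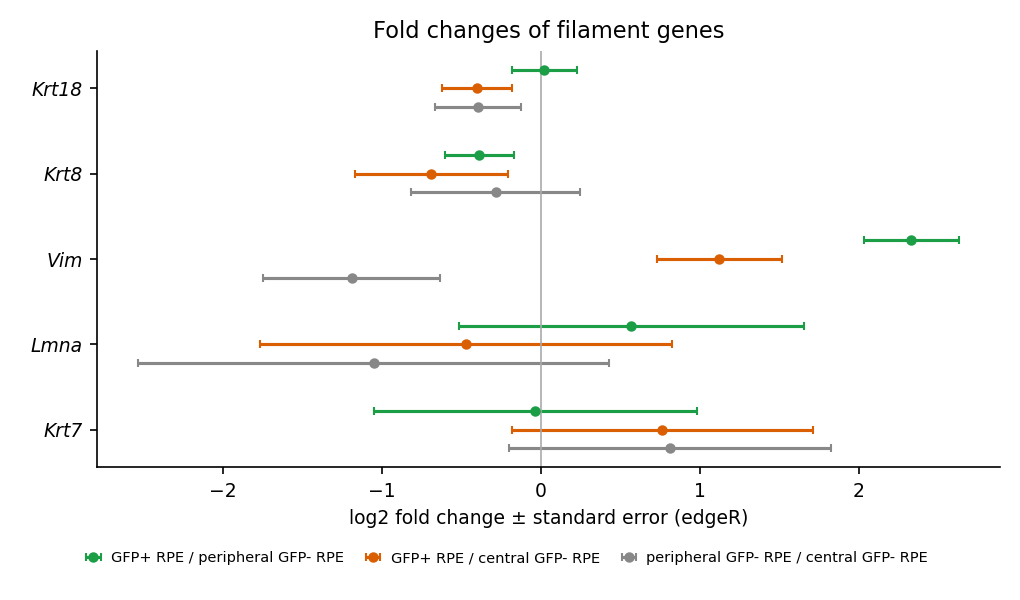
Log2 fold changes from edgeR (points) with their standard errors (bars) for the 5 filament genes that passed the filter, in 3 comparisons given in the key as first group over second group. Vim stands at 2.33 for GFP+ against peripheral GFP- RPE and 1.12 against central GFP- RPE, the Krt18 and Krt8 values lie between -0.69 and 0.02, and the bars of Lmna and Krt7 are the widest.

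The genes whose levels were most like those of the 3 most abundant filament genes were sought by the Spearman correlation of log2(CPM + 1) over the 17 libraries, among 10659 other genes that passed the filter over all 3 groups. For Vim they were Vamp5, a SNARE protein gene, at 0.93, Prdx6, a peroxiredoxin gene, at 0.83, and Ghitm, the gene of an inner mitochondrial membrane protein, at 0.82. Vamp5 stood at 133 to 203 CPM in GFP+ RPE, 55.8 to 132 CPM in peripheral GFP- RPE and between 11.3 and 135 CPM in the central libraries. Its GFP+ range lay just above the peripheral GFP- range and met the central one, whereas Vim had a wider gap between the GFP+ and peripheral GFP- ranges. For Krt18 the most similar were Ocel1 at 0.82, Sh3rf2 at 0.81 and Ddrgk1 at 0.78, and for Krt8 they included Gm128 and Csgalnact1, a chondroitin sulfate enzyme gene, both at 0.80. Csgalnact1 and Gm128 were at 0 counts in several libraries, and each list is the top of a ranking over all genes in libraries that share mice and depth.

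The wider filament system was read from lists of 128 genes, 126 of them in the table: the other keratins, other filament proteins, plakins and desmosomes, hemidesmosomes, partners of the nuclear lamina, chaperones of filaments, and genes of the epithelial-mesenchymal transition. With edgeR, 0 of the 47 tested were called between GFP+ and peripheral GFP- RPE, 0 of 43 between GFP+ and central GFP- RPE, and 0 of 46 between peripheral and central GFP- RPE. At an unadjusted p under 0.05 with edgeR there were 3, 1 and 1. Over all genes tested, this threshold was passed by 278 higher and 286 lower of 10102, 199 and 340 of 9286, and 98 and 159 of 9535. Group ranges did not overlap for 1 of the 47 (Cryab), 1 of the 43 (Dsp) and 0 of the 46. The shares over all genes tested were 1.29%, 1.13% and 0.755%. DESeq2 called 0 of the listed genes in each comparison. The median log2 fold changes of the tested genes were 0.00, 0.08 and 0.23, beside 0.01, 0.00 and 0.01 over all genes tested.

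Of the other keratins, 16 of the 48 in the table exceeded the floor in any library. Krt10, a type I keratin known from differentiating epidermis, was the highest at 32.2 ± 15.1 CPM (SD, n = 6) in GFP+ RPE, 46.2 ± 14.0 (n = 5) in peripheral GFP- RPE and 32.4 ± 19.1 (n = 6) in central GFP- RPE. Krt23 followed at 12.8 ± 19.1, 13.5 ± 14.2 and 19.1 ± 19.0 CPM, ranging from 0 to 50.4 CPM between GFP+ libraries. Krt222, a keratin-like gene, was at 12.4, 1.61, 3.66, 36.9 and 0 CPM in peripheral GFP- RPE of mice 1, 2, 4, 5 and 7. It reached 0.739 CPM in the central libraries and 10.6 CPM in GFP+ RPE. Its peripheral and central GFP- ranges overlapped, and it passed the unadjusted threshold between them, with an adjusted p of 1.00 in edgeR. Among type II keratins Krt1, Krt75 and Krt78 were the highest, with group means of at most 4.77, 3.13 and 1.34 CPM. Krt5 and Krt14, the pair of stratified epithelia, were at the floor in all 17 libraries. The highest group mean among these other keratins, 46.2 CPM, was below every group mean of Krt8 and Krt18.

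Desmosomal plaque and plakin genes link keratins to junctions and other filaments, and Macf1, Perp and Dst were the highest of the 19 listed. Dsp, which encodes the plakin that anchors keratins at desmosomes, was 4.93, 4.56, 49.6, 40.8, 38.0 and 15.3 CPM in GFP+ RPE of mice 1, 2, 3, 4, 5 and 7 and 51.2 to 114 CPM in central GFP- RPE. These ranges did not overlap, with a log2 fold change of -1.72 (SE 0.61) and an adjusted p of 0.443 in edgeR, past the threshold only before adjustment. Dsp in peripheral GFP- RPE, at 10.5 to 82.8 CPM, overlapped both. Perp, a desmosomal membrane protein gene, was 125 ± 43.4 CPM (n = 6) in GFP+ RPE and 66.5 ± 26.4 CPM (n = 5) in peripheral GFP- RPE, with a log2 fold change of 0.95 (SE 0.35) and an adjusted p of 0.708 in edgeR. Plec, the gene of plectin, which links vimentin and keratins to other structures, was at 7.10 ± 5.68, 3.50 ± 4.45 and 4.88 ± 4.37 CPM in the 3 groups. Of the hemidesmosome genes, Cd151 and Itga6 were the highest, Lamb3 was the third at a group mean of at most 0.271 CPM, and Itgb4, Col17a1 and Lama3 were at the floor.

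Cryab, the gene of alpha B-crystallin, a small heat shock protein known to bind desmin and vimentin filaments, was the most abundant of the 7 chaperones, followed by Dnajb6 and Bag3. It was at 1120, 991, 1141, 865, 749 and 693 CPM in GFP+ RPE of mice 1, 2, 3, 4, 5 and 7 and at 428, 518, 637, 478 and 551 CPM in peripheral GFP- RPE of mice 1, 2, 4, 5 and 7. These groups did not overlap, and the log2 fold change was 0.86 (SE 0.19) with an adjusted p of 0.255 in edgeR. Central GFP- RPE ranged from 315 to 1422 CPM and spanned both. As for Vim, the highest central Cryab value was that of mouse 4 and the higher GFP+ values were those of mice 1 to 3. The central libraries of mice 5, 6 and 7 ranked otherwise, at 1048, 546 and 605 CPM of Cryab beside 31.8, 86.5 and 98.9 CPM of Vim.

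Among the 19 lamina partners, Banf1, Tor1aip2 and Syne2 were the highest, 18 were tested in each comparison, and 0 passed an unadjusted p under 0.05 in any. Banf1, which encodes a protein that ties chromatin to the lamina, held 133 ± 21.7, 146 ± 19.0 and 159 ± 69.5 CPM in GFP+, peripheral GFP- and central GFP- RPE. Lmnb2, the other B-type lamin gene, was at 1.87 ± 3.14, 0.746 ± 1.30 and 2.05 ± 4.24 CPM. Bfsp2, Iffo1 and Iffo2 were the highest of the other filament proteins, at group means of at most 10.1, 12.2 and 4.51 CPM.

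The epithelial-mesenchymal transition genes were added because vimentin is commonly read as one of its markers. Of the 14 listed, 5 were tested, and Sparc, Acta2 and Zeb2 were the highest. Snai1, Twist1, Cdh1, Fn1 and S100a4 were at or under the floor in all 17 libraries, and this set holds both transition markers and the epithelial cadherin Cdh1. Acta2, the smooth muscle actin, was 319 ± 172 CPM (n = 6) in GFP+ RPE and 173 ± 54.2 CPM (n = 5) in peripheral GFP- RPE, with overlapping ranges, a log2 fold change of 0.93 (SE 0.34) and an adjusted p of 0.708 in edgeR. Sparc, a matricellular protein gene, held 431 ± 122, 364 ± 102 and 249 ± 128 CPM and Zeb2, a transcriptional repressor gene, held 30.6 ± 7.22, 49.2 ± 19.3 and 37.7 ± 18.5 CPM in the 3 groups.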

How the data were processed

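The authors deposited 1 table of whole-number estimated counts per gene symbol for 17 SMART-Seq libraries, without normalization, sequenced as single-end reads of 50 bases. The submitters' processing notes name fastp, Salmon and the build GRCm38.p6; their settings, the annotation and the use of strand are not given in the sources used here. The labels give 10 to 15 cells per pool and name the SMART-Seq mRNA LP kit from lysis on, whereas the methods give another range of cells and the lysis buffer of a SMARTer Ultra Low Input kit. No molecular identifiers are described, so that counts include PCR copies and detection floors cover counting error only.

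The 10 genes, the lists of the wider filament system and the cell markers were chosen with earlier results of these data known. All 10 are named, as are any called gene of the lists, the 3 genes of each list with the highest mean CPM, the 2 highest of each marker list, markers at the floor and the 3 genes most similar to each of the 3 most abundant filament genes by CPM per kilobase. Genes under an unadjusted p of 0.05 (Dsp, Perp, Cryab, Acta2 and Krt222), Lmnb2 and Plec were added after their values were seen. So were the markers Pdgfrb, Notch3, Rgs5, Kcnj8, Tagln, Abcc9, Kdr, Egfl7 and Pecam1. Acta2, Krt5, Krt12 and Krt14 stand in both a filament list and a marker list.

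Each of the 3 comparisons was fitted on the 2 groups compared in R (version 4.3.3) using edgeR (version 4.0.16), its default filter on low counts, TMM scaling and the quasi-likelihood test. Calls needed a Benjamini-Hochberg adjusted p under 0.01 over all genes tested and an absolute log2 fold change over 1. CPM values used TMM scaling over all 17 libraries. Exon lengths came from the GENCODE annotation of GRCm38, as the union of all annotated exons of a gene. The methods name DESeq2 (here version 1.42.0), which was run as an alternative, beside other filters, scalings, fits of all 3 groups, the mouse as a block and each library left out in turn. The scripts were tested on simulated data. Libraries of a group are pools from separate mice, as the labels give animal numbers, and these pair libraries across groups. The deviations of libraries of 1 mouse from their group means correlated at -0.0201 to 0.0973 over 15 pairs. No 2 libraries were copies, the highest correlation over 136 pairs being 0.92. A planned comparison of the proteins was not run, since no protein sequences were used here. Some results for single genes and 1 marker list are not reported here.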

Additional observations from a re-analysis of the deposited data

Results flagged for a closer look

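Among 28 sets of values of 1 gene or ratio in 1 group, 8 held a library that stood far from the others by Dixon's 95% limit. Chance gives about 1 in 20 for values with a normal spread, which these CPM values need not have. A set with counts in only 1 library, as for Krt19 and central Lmnb1, is always flagged. The low central Krt8 of mouse 5 also enters the flagged ratio, so that the flags cannot be set against that rate. In the peripheral GFP- group, Krt18 was lowest at 452 CPM in mouse 5 against 906 in the next library. The ratio of Krt18 to Krt8 per exon base there was highest at 9.84 in mouse 7 against 6.51, and Krt19 was at 0.193 CPM in mouse 4 against 0 in the others.

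In the central GFP- group, Krt8 was lowest at 8.50 CPM in mouse 5 against 203 in the next library, and the ratio of Krt18 to Krt8 was highest in the same library at 106 against 7.58. This library had the highest mitochondrial share, 47.3%, and the fewest genes at 10 or more counts, 5392, whose part in the low Krt8 was not tested. Its Krt18, at 663 CPM, was the lowest of that group but was not set apart by this limit. Lmnb1 was at 1.60 CPM in the central library of mouse 1 against 0 in the others.

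In the GFP+ group, Krt7 was highest at 4.09 CPM in mouse 3 against 1.55, and Lmnb1 was highest at 2.42 CPM in mouse 4 against 0.570.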

How the results depend on the processing

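Of the genes of the wider filament system, 0 were called in all 3 comparisons under every setting run, DESeq2 and the mouse as a block included. The count over all genes did depend on the setting. Between GFP+ and central GFP- RPE it was 4 by edgeR, 202 with DESeq2 (82 higher and 120 lower), 56 with the mouse as a block (1 higher and 55 lower), 2 with a filter of 10 counts in 5 libraries, 8 at an adjusted p under 0.05 without a fold limit, 2 with mitochondrial genes left out of the scaling and 1 to 3 with 1 library left out. Between GFP+ and peripheral GFP- RPE it was 4 by edgeR, 67 with DESeq2, 0 with the mouse as a block, 0 with all 3 groups in the fit, 2 with mitochondrial genes left out of the scaling and 0 to 5 with 1 library left out. Between peripheral and central GFP- RPE it was 0 by edgeR, 29 with DESeq2 and 0 with any library left out. The cause of these shifts was not tested. Vim kept its direction in all alternatives of the 3 comparisons, with log2 fold changes of 2.20 to 2.51, 0.98 to 1.68 and -1.37 to -0.81 in the order GFP+ against peripheral, GFP+ against central and peripheral against central GFP- RPE. Vim was the only 1 of the 10 filament genes called under any setting. With the mouse as a block, the call of Vim was lost at a log2 fold change of 2.24, Lmna reversed in 2 comparisons, at 1.49 and 0.86, Krt8 reversed in 1, at 0.15, and Krt7 moved to -0.51 for GFP+ against peripheral and 1.55 for peripheral against central GFP- RPE. Total counts in place of TMM, chosen with mitochondrial scaling after seeing the data, moved the median log2 fold change of all genes to 0.48 for GFP+ against central, 0.16 for GFP+ against peripheral and 0.32 for peripheral against central GFP- RPE, and Vim then stood at 1.68, above that shift, in the first. Krt18, at 0.09, and Krt8, at -0.30, stood below it. Low counts limit Krt7 and Lmnb1, the scatter of Lmna between libraries of 1 group limits its fold changes, and the 5 to 6 libraries per group limit all fold changes.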
